A study of Mus musculus with 3 samples.

Results

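The 80 genes described here encode proteins of the cytosolic ribosome. They were chosen by name: 81 symbols of the mouse gene list match the Rpl, Rps, Rplp or Rpsa pattern without being S6 kinase genes, and 80 of these, of 27998 genes in all, reached 100 UMIs over the 3 matrices. Rpl10l was the only symbol below that minimum. The 80 members comprise 49 proteins of the large subunit and 31 of the small subunit. The name pattern misses 8 further ribosomal protein genes, among them Rps3a1, Fau and Gnb2l1, which were followed as a list of their own. Apart from that UMI minimum the choice was by name, and it was made with earlier results of these data known.

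A ribosome is built from a small subunit, which reads the mRNA, and a large subunit, which joins amino acids. A particle holds a single copy of most, though not all, of the ribosomal proteins. Most of their mRNAs carry a 5' TOP tract, a run of pyrimidines beginning with a cytosine at the cap, through which mTORC1 and the RNA-binding protein Larp1 govern their translation and storage together. Dendritic cells that mature after a danger signal switch from taking up antigen to presenting it, and protein synthesis is regulated during that switch.

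The cells were CD11c+ phagocytes sorted from the Peyer's patches, the lymphoid follicles of the small intestine, of female C57BL/6Rj mice. Each of the 3 libraries pooled 12 animals: the Control library came from 88 patches of untreated mice, the CpG library from 85 patches taken 9 h after 125 µg of CpG given into the peritoneum, and the R848 library from 90 patches taken 9 h after 10 µg of R848. CpG is a DNA agonist of the endosomal receptor Tlr9 and R848 a small-molecule agonist of Tlr7. The sort gathered cDC1s and cDC2s, the conventional dendritic cell (DC) types, with LysoDCs and macrophages, the lysozyme-expressing phagocytes of the patch. The clusters also included 64, 42 and 32 B-cell-like cells (Control, CpG and R848), a type that those gates do not name. Control mice had no injection, so agonist and injection cannot be told apart. With 1 library per group there is no replicate: no test was possible, and every interval below is a 95% interval for counting error only, which leaves out variation between pools of mice.

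The libraries held 5344 (Control), 5049 (CpG) and 5133 (R848) cell barcodes and 43537067, 43767864 and 46556726 UMIs, with medians of 7494, 7501 and 8223 UMIs per barcode. Between 33 and 42 barcodes were shared by any pair of libraries and 0 by all 3. In the whole libraries 20 of 20 measured interferon-stimulated genes were higher after CpG (median log2 ratio 2.50) and 20 of 20 after R848 (2.64), beside 25.5% and 25.8% of all genes and medians of 0.03 and 0.04 over all genes. Cells were grouped into resting DCs (cDC1-like and cDC2-like clusters), mature DCs and lysozyme-high phagocytes with every ribosomal protein gene left out of the clustering. The mature DC markers summed to 11686, 22805 and 20573 CPM in mature DCs (Control, CpG and R848). In lysozyme-high phagocytes they summed to 1582, 1380 and 2574 CPM. All 15 reached 5 CPM in mature DCs, but also in treated resting DCs and treated lysozyme-high phagocytes. That count thus does not set the classes apart. Of the 17 lysozyme-high markers, 16 or 17 reached 5 CPM in that class and 10 to 12 in the DC classes. In resting DCs 14, 13 and 8 of the 14 cDC1 markers and 14, 13 and 13 of the 15 cDC2 markers did so. In treated resting DCs the mature DC markers summed to 2760 CPM (CpG) and 2236 CPM (R848) against 1254 CPM in Control. The part of these other markers in the results was not tested.

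The sequence around the transcription start is shown for 8 members because it holds the element that members of this family are known to share. Each line gives 10 bases before the annotated start and 20 from it on, 5' to 3' on the gene's strand, from RefSeq on GRCm38.p6, and capitals mark the longest run of C and T that begins with C near the start. Rpl27a, Rpl35 and Rpl15 have long runs and Rpl5 and Rplp0 short ones. The windows lie at chr7:109519185-109519214 (+) for Rpl27a, chr2:39005112-39005141 (-) for Rpl35, chr14:18270967-18270996 (-) for Rpl15, chr4:86857348-86857377 (-) for Rps6, chr3:90213629-90213658 (-) for Rps27, chr9:66946076-66946105 (+) for Rps27l (1 of 2 starts in the table), chr5:107900518-107900547 (+) for Rpl5 and chr5:115559457-115559486 (+) for Rplp0.
Rpl27a: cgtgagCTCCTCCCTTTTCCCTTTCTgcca
Rpl35: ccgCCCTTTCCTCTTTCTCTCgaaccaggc
Rpl15: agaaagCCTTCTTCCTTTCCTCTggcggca
Rps6: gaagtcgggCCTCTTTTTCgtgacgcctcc
Rps27: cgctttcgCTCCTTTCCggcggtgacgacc
Rps27l: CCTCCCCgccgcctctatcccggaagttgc
Rpl5: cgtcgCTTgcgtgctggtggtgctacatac
Rplp0: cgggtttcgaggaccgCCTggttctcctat

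Promoters of 59 members were matched by symbol in the RefSeq table. A run of at least 8 C or T starting with C within 10 bases of the annotated start was present in 23 of 59 (39.0%), beside 9.43% of 27025 genes in the table. CCGGAAG, the core recognised by ETS-family factors, was present on either strand in 25 of 59 promoter windows (42.4%) and in 9.93% of all. AAGATGGC, a YY1 core, was present in 5 (8.47% against 3.19%), and TATAAA in 6 (10.2% against 15.7%). These are letter matches in annotated windows, not mapped sites or starts. The members lay on 19 chromosomes, with 14 on chromosome 7 and 4 on the X, so the family is not a linked cluster.

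In untreated mice, ribosomal protein transcripts took the largest share of UMIs in resting DCs and the smallest in lysozyme-high phagocytes. The 80 members together made up 22.0% of all UMIs in 2268 resting DCs of the Control library, 19.7% in 535 mature DCs and 12.2% in 1813 lysozyme-high phagocytes. Among resting DCs the share was 23.3% in cDC1-like cells and 21.6% in cDC2-like cells. The 64 B-cell-like cells of the same library stood above all of these at 28.5%. For the summed share, the ratio of mature to resting DCs was 0.896 (0.8938 to 0.8988), a log2 ratio of -0.16. The ratio of lysozyme-high phagocytes to resting DCs was 0.555 (0.5541 to 0.5560), a log2 ratio of -0.85. The order of the classes was the same after treatment: resting DCs were at 17.0% (CpG) and 17.3% (R848), mature DCs at 14.96% to 14.99% (the counting interval) and 15.3%, and lysozyme-high phagocytes at 9.90% and 10.2%. With the 50 most abundant other genes left out of the total, the log2 ratio of mature to resting DCs in R848 turned from -0.18 to 0.02.

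After either agonist the share was lower in every class. Resting DCs differed in make-up between the libraries: cDC1-like cells were 467 of 2268 in Control, 48 of 421 after CpG and 0 of 506 after R848. In resting DCs it went from 22.0% to 17.0% after CpG, a ratio of 0.773 (0.7713 to 0.7755), and to 17.3% after R848, a ratio of 0.785 (0.7829 to 0.7870). In cDC2-like cells alone the log2 ratios were -0.34 and -0.32, against -0.37 and -0.35 for the class. In mature DCs the ratios to Control were 0.760 (0.7579 to 0.7622) for CpG and 0.775 (0.7722 to 0.7768) for R848. In lysozyme-high phagocytes they were 0.811 (0.8097 to 0.8130) and 0.838 (0.8360 to 0.8391). Both contrasts share the Control library. R848 and CpG differed little in the summed share, by log2 ratios of 0.02, 0.03 and 0.05 in resting DCs, mature DCs and lysozyme-high phagocytes.

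Most treated cells had a share below the median of the Control cells of their class. After CpG and R848 these were 94.3% and 94.1% of resting DCs, and 88.3% and 86.0% of mature DCs. Of lysozyme-high phagocytes they were 84.8% and 79.7%. Of treated resting DCs, 83.8% (CpG) and 81.8% (R848) had a share below the lower quartile of Control resting DCs, which is 19.7%. For mature DCs the shares below the Control lower quartile of 16.7% were 70.7% and 64.2%, and for lysozyme-high phagocytes, below 9.91%, they were 53.8% and 49.3%. Cells are not replicates, so these percentages describe the libraries only. Within a fixed depth the gap was also present: among resting DCs with 5000 to 8000 UMIs the median share was 21.9% (Control, 1046 cells), 16.6% (CpG, 127 cells) and 17.0% (R848, 232 cells).

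The number of ribosomal protein UMIs per cell gives another view of the same cells. In resting DCs the median cell held 1350 member UMIs without agonist, 1447 after CpG and 1296 after R848, while the median of all UMIs per cell was 6289, 9036 and 7636. In lysozyme-high phagocytes the medians were 1162, 1226 and 1202 member UMIs against 10010, 12962 and 12172 UMIs in all. In these classes the lower share therefore went with more UMIs of other genes per cell, and with a number of member UMIs that differed less than the share did. Mature DCs differed in this: the median mature DC held 1018 member UMIs without agonist, against 822 and 825 after CpG and R848, with 5135, 5633 and 5462 UMIs in all. UMIs per cell also depend on capture and sequencing depth of each library, so fewer ribosomal protein transcripts per cell and more of all others cannot be told apart here. The mitochondrially encoded share moved the same way, from 2.22% to 1.69% (CpG) and 1.65% (R848) in resting DCs and from 3.24% to 2.37% and 2.01% in lysozyme-high phagocytes. Its part in the result was not tested.

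**Figure D1:**
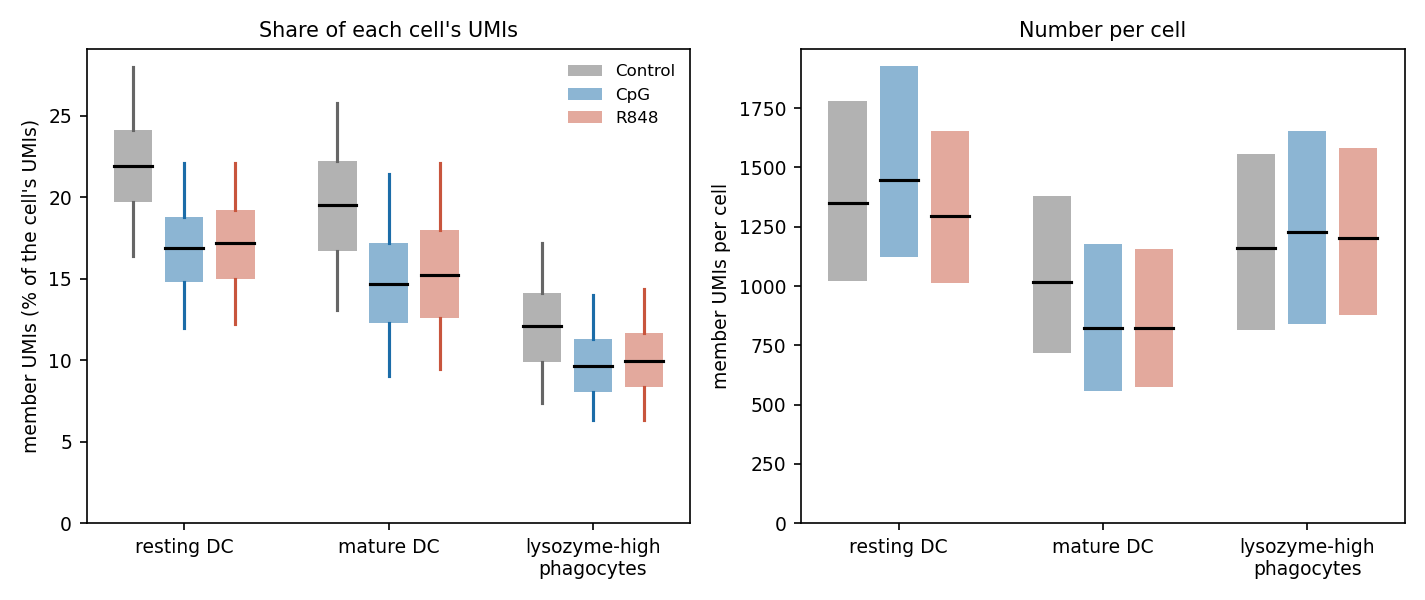
Members' UMIs as a percentage of each cell's UMIs (left) and as a number per cell (right), by class and library; boxes span the quartiles over cells, black lines are medians and whiskers (left only) reach the 5th and 95th percentiles. The share is lower in both treated libraries in each class, while the number per cell in resting DCs (medians 1350, 1447 and 1296) and lysozyme-high phagocytes (1162, 1226 and 1202) is similar.

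The shift in the whole libraries was mostly within classes. Over the 3 classes together the share was 16.9% (Control), 13.0% (CpG) and 12.5% (R848). With each class weighted as in Control, the CpG and R848 values were 13.3% and 13.6%. With the Control level in each class and each library's own mix of classes they were 16.7% and 15.5%. Across single clusters of mature DCs the share ranged from 17.3% to 20.2% in Control (2 clusters), from 13.8% to 17.7% after CpG (7 clusters) and from 12.7% to 19.3% after R848 (6 clusters), so the range after R848 overlaps that of Control.

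Gene by gene, a member was called when its CPM (its share of the UMIs of the class, on a scale where 10000 CPM are 1%) was at least 25% higher on one side than on the other, with 5 CPM added to both sides, and the counting interval of the ratio left out 1. Of the 80 members, 77 reached the minimum of 20 CPM in a side of each comparison; Rpl39l, Rpl3l and Rps12 did not. Between CpG and Control, 52 of 77 were lower and 2 higher in resting DCs, where 10.6% of all measured genes were lower and 26.2% higher. In mature DCs 55 were lower and 1 higher (25.2% and 33.1% of all genes), and in lysozyme-high phagocytes 39 were lower and 1 higher (10.1% and 17.8%). Between R848 and Control, 42 were lower and 1 higher in resting DCs (7.87% and 37.4% of all genes), 52 and 1 in mature DCs (32.3% and 27.8%), and 22 and 0 in lysozyme-high phagocytes (12.5% and 26.3%). The median log2 ratios over members were -0.38, -0.48 and -0.32 after CpG and -0.34, -0.40 and -0.24 after R848, for resting DCs, mature DCs and lysozyme-high phagocytes in turn. The medians over all genes were 0.14, 0.08 and 0.05, then 0.24, -0.04 and 0.11. Between R848 and CpG few members were called: 4 were higher and 2 lower in R848 in resting DCs (14.0% and 6.96% of all genes), 3 and 6 in mature DCs (13.4% and 27.6%), and 5 and 2 in lysozyme-high phagocytes (11.8% and 9.10%).

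Between the classes the members also moved as a block. In lysozyme-high phagocytes of the Control library 74 of 77 members were lower than in resting DCs and 0 higher (37.5% and 27.4% of all genes), with 25 lower by at least 2-fold (9.74% of all genes) and a median log2 ratio of -0.83 beside -0.14 for all genes. The same comparison gave 75 lower and 0 higher within the CpG library (44.0% and 27.1% of all genes) and 73 and 0 within the R848 library (45.3% and 26.4%). Mature against resting DCs was a much smaller step: 3 members were lower and 1 higher in Control (33.8% and 21.4% of all genes), 25 and 1 in CpG (41.9% and 26.8%), and 24 and 1 in R848 (53.0% and 22.7%). These shares of members called lower are below those of all genes, and the median of all genes in R848 (-0.39) was lower than that of the members (-0.21). The family was thus not called lower more often than other genes in this comparison.

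**Figure D2:**
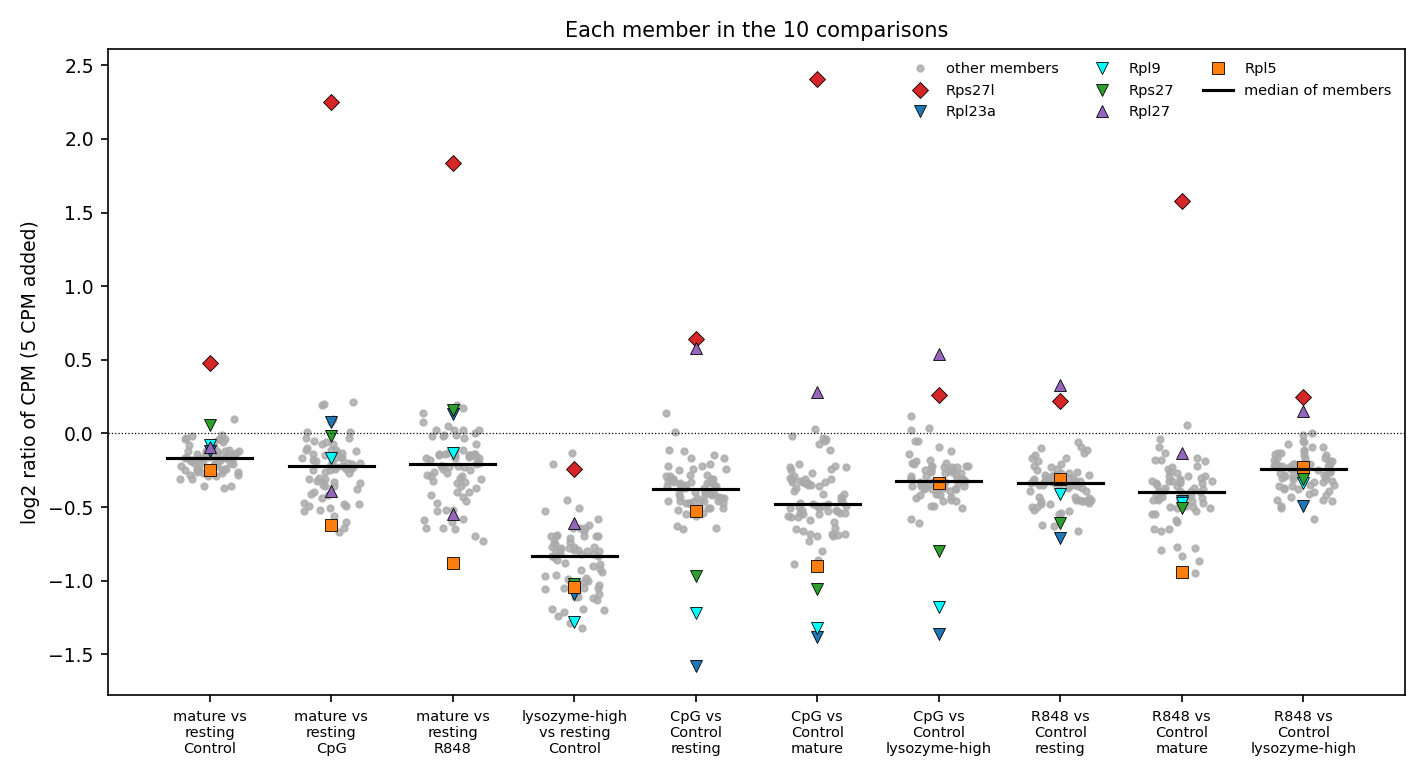
Log2 ratio of CPM (vertical axis, 5 CPM added to both sides) of the 77 members above the minimum level in the 10 comparisons; grey points are single genes and black bars medians. Most members lie close to the bar, Rps27l lies far above it in mature DCs, and Rpl23a, Rpl9 and Rps27 lie below it after CpG in each class.

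The levels of single members spread widely around a stable order. Since each UMI stands for the 3' end of one transcript, CPM was not divided by gene length. In Control resting DCs the members ran from 1.26 to 6244 CPM with a median of 2802 CPM, and the 10 highest made up 24.6% of the family. In the whole Control library the highest included Rpl41 (5199 CPM), Rps29 (4792), Rps19 (4765), Rps27a (4465) and Rpl37a (4011), and the lowest Rps27 (94.4), Rpl10 (81.9), Rpl27 (29.0), Rps12 (10.6), Rpl39l (6.30) and Rpl3l (3.66). Rpl41 is the shortest protein of the ribosome, and Rps27a is made as a fusion with ubiquitin. The large-subunit members outweighed those of the small subunit by 1.17 to 1.26 in the 9 combinations of class and library.

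The stalk of the large subunit, which recruits the elongation factors, is formed by Rplp0, Rplp1 and Rplp2 on a base that includes Rpl12. Rplp0 measured 4548 CPM in Control resting DCs, 3835 after CpG and 3598 after R848, and 4436, 3295 and 3431 CPM in mature DCs. In lysozyme-high phagocytes it measured 2654, 2203 and 2286 CPM. The treated libraries were below Control in each class. Rplp1 differed from Rplp0 between classes: it measured 2825 CPM in Control resting DCs, 2554 in mature DCs and 2438 in lysozyme-high phagocytes, a log2 ratio of only -0.21 for the last class, where Rplp0 had -0.78, Rplp2 -0.64 and Rpl12 -0.99. Rplp1 was 1 of the 3 members not called lower there, with Rps29 (-0.13) and Rps27l (-0.24).

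Rpl5 and Rpl11 bind 5S RNA and, outside the ribosome, the p53 regulator Mdm2. Rpl5 measured 1341 CPM in Control resting DCs, 930 after CpG and 1078 after R848. In mature DCs the values were 1127, 602 and 584 CPM, with log2 ratios of -0.90 and -0.94 and little between the treated libraries. In lysozyme-high phagocytes they were 650, 513 and 555 CPM, with smaller ratios of -0.34 and -0.23. Rpl11 stayed nearer the family in mature DCs, at 2004, 1388 and 1502 CPM (log2 -0.53 and -0.41). Rpl11 was among the lowest members in lysozyme-high phagocytes against resting DCs (log2 -1.29), as was Rpl9 (-1.28).

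Rpl5 shared its low position in treated mature DCs with Rpl3 and Rpl6. Rpl3, which lies near the peptidyl transferase centre, measured 2605 CPM in Control mature DCs, 1499 after CpG and 1426 after R848 (log2 -0.80 and -0.87). Rpl6 measured 695, 372 and 388 CPM (-0.89 and -0.83), and was chosen for naming after its values were seen. In resting DCs the same 3 genes had log2 ratios between -0.31 and -0.63. Across all mature clusters, Rpl5 ranged from 948 to 1165 CPM in Control and from 485 to 789 CPM in the treated libraries, without overlap.

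The members at the exit of the peptide tunnel differed in size of response. Rpl19 reached no call in the 6 treated comparisons: it measured 3507 CPM in Control resting DCs, 3223 after CpG and 3302 after R848, and 3487, 3238 and 3268 CPM in mature DCs. Rpl35 moved more after CpG, from 1256 to 852 CPM in resting DCs (log2 -0.56), than after R848 (1031 CPM, log2 -0.28). Rpl26, Rpl31 and Rpl39 had log2 ratios from -0.19 to -0.49 in the 6 treated comparisons. Rpl23a is described with the near-identical copies further on.

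Of the proteins at the head and mRNA channel of the small subunit, Rps2, Rps3 and Rps10 were lower in treated mature DCs and Rps20 reached no call there. Rps3 measured 3221 CPM in Control resting DCs, 2593 after CpG and 2627 after R848, and 2855, 2015 and 2175 CPM in mature DCs. Rps20 measured 2302, 1745 and 1827 CPM in resting DCs but 2122, 2022 and 2059 CPM in mature DCs, where its log2 ratios were -0.07 and -0.04. Rps24 also reached no call in mature DCs, at 3539, 3428 and 3696 CPM, and Rps26 after CpG alone, at 1449, 1427 and 1043 CPM. Rps24 and Rps26 are among the genes known to be mutated in Diamond-Blackfan anaemia.

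Rps6, the substrate of S6 kinase below mTORC1, measured 4316, 3486 and 3395 CPM in resting DCs, 3754, 2755 and 2626 in mature DCs and 1979, 1696 and 1711 in lysozyme-high phagocytes, for Control, CpG and R848 in turn. Rpl13a, which can leave the ribosome for the interferon-activated GAIT complex that silences mRNAs, measured 4489, 3257 and 3548 CPM in resting DCs and 4020, 3017 and 3226 in mature DCs. Rpsa, also known as the laminin receptor, measured 2392, 1743 and 1770 CPM in resting DCs. Rps27a, the ubiquitin fusion, went from 5071 CPM to 3142 and 3350 CPM in mature DCs, log2 ratios of -0.69 and -0.60. All 4 measured less in both treated libraries than in Control in every class, and 17 of these 24 differences were called. Of all 77 measured members, 22 to 55 were called lower in the same comparisons, and of all genes 7.87% to 32.3%. Of the X-linked members, Rps4x measured 3755, 2622 and 2658 CPM in resting DCs and Rpl36a 1439, 1048 and 1027 CPM.

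Rps27l was the exception of the family. Rps27l and Rps27 are paralogs of the small subunit, and Rps27l is known as a target of p53 that binds Mdm2. Rps27l measured 578 CPM in Control mature DCs, 3090 after CpG and 1733 after R848, log2 ratios of 2.41 and 1.58, while every other member measured there lay between -1.38 and 0.28 (CpG) and between -0.95 and 0.06 (R848). In resting DCs it measured 413, 644 and 481 CPM and in lysozyme-high phagocytes 348, 418 and 415 CPM. The CpG value in resting DCs rests on 1 cluster of 48 cDC1-like cells at 1941 CPM: in cDC2-like cells alone Rps27l measured 415, 467 and 481 CPM. Among untreated cells, mature DCs stood above resting DCs by a log2 ratio of 0.48, which rests on a cluster of 79 cells at 1380 CPM. Without that cluster mature DCs were at 408 CPM.

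Rps27l shares 0% of the 50-base windows at its 3' end with another gene, and the coding sequences of the pair are shown to let the paralogs be compared. They come from GENCODE M21 transcripts (GRCm38; Rps27 at chr3:90212522-90213651 (-), Rps27l at chr9:66946086-66949516 (+)), and capitals mark the 61 of 255 bases that differ (identity 76.1%).
Rps27: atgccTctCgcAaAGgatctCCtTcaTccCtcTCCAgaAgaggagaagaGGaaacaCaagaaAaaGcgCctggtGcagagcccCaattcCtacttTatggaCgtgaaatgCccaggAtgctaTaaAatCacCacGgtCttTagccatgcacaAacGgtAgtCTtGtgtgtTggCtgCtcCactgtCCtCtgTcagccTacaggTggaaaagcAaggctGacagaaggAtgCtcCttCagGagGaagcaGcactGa
Rps27l: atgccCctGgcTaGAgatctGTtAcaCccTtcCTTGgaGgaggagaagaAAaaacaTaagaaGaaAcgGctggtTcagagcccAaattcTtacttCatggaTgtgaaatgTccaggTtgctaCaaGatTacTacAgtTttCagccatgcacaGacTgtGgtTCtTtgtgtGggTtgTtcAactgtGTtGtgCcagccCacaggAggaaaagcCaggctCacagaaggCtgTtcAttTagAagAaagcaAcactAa
A further row of the matrices, Rps27rt, is a retrotransposed copy whose coding sequence differs from that of Rps27 at 0 of 255 bases, so it is not printed.

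Rps27l was uneven among mature DCs, and it had been left out of the clustering. After CpG it measured 5309 and 6744 CPM in clusters of 587 and 381 cells, 2348, 2103 and 2468 CPM in clusters of 766, 192 and 69 cells, and 912 and 657 CPM in clusters of 582 and 201 cells. After R848 the 6 mature clusters ranged from 535 to 4346 CPM. The clusters of 628 and 422 cells, the largest, were at 863 and 535 CPM, beside 408 and 1380 CPM in the 2 Control clusters. A cluster of 334 R848 cells without a name, nearest to mature DCs, measured 3722 CPM. Leaving out any 1 cluster put the class value between 2298 and 3590 CPM (CpG), between 1253 and 2146 CPM (R848) and at 408 or 1380 CPM (Control, 2 clusters). The lowest R848 value is thus below that of the 79-cell Control cluster alone. Xcr1, a cDC1 marker, measured 40.6 CPM in the 79-cell Control cluster and 3.68 CPM in the other. After R848 it measured 98.8 and 33.2 CPM in the clusters with 2940 and 4346 CPM of Rps27l. The R848 clusters at 863 and 535 CPM held 0.301 and 0 CPM of Xcr1, and the one at 2452 CPM held 1.86. After CpG the clusters at 5309 and 6744 CPM held 7.14 and 1.97 CPM of Xcr1. The part of the mix of DC types among mature DCs in the Rps27l values was not tested.

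Trp53, the gene of the tumour suppressor p53, measured 75.3 CPM in Control mature DCs and 32.9 and 32.0 CPM after CpG and R848. Cdkn1a, which blocks the cell cycle, measured 261, 129 and 302 CPM. In the CpG cluster with most Rps27l (6744 CPM) Cdkn1a was at 55.0 CPM and Mdm2 at 40.0 CPM, and in the one with 912 CPM they were at 328 and 49.0 CPM. In the Control cluster at 1380 CPM they were at 621 and 48.4 CPM, and in the one at 408 CPM at 185 and 29.5 CPM. The part of these genes in the Rps27l values was not tested. RNA free in the droplets was estimated from complement C1q transcripts in mature DCs as 4.40%, 2.61% and 2.43% of their UMIs (Control, CpG and R848). It would bring 17.9, 42.6 and 22.0 CPM of Rps27l. Measured levels were 578, 3090 and 1733 CPM in mature DCs and 348, 418 and 415 CPM in lysozyme-high phagocytes. The part of free RNA in the differences between libraries was not tested.

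**Figure D3:**
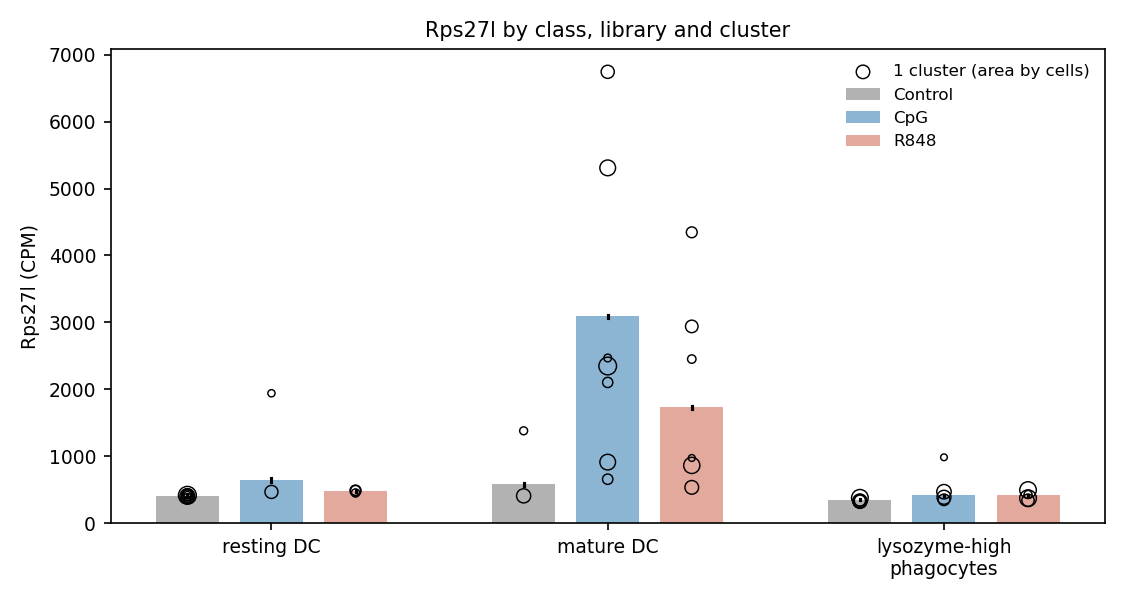
Rps27l in CPM (vertical axis) by class and library; bars are class levels from summed UMIs with 95% counting intervals, and circles are single clusters, their area growing with the number of cells. Mature DCs reach 3090 CPM after CpG and 1733 CPM after R848 against 578 CPM in Control, and their clusters spread from 657 to 6744 CPM after CpG.

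Several of the members with the lowest counts have near-identical copies. Ribosomal protein genes have many processed pseudogenes, and a read that matches a member and a copy equally cannot be assigned by its sequence; the labels do not say how such reads were counted. For the 79 members with a GENCODE M21 transcript (all but Rpl6l), 50-base windows of the last 300 bases were searched in all other genes, and 35 had at least 50% of windows in another gene. Among the 11 of them under 500 CPM, 6 did. The others under 500 CPM were Rps27l, Rpl15, Rpl39l and Rpl3l, with 0% shared, and Rpl9. Rpl3l and Rpl39l are the paralogs of Rpl3 and Rpl39 known mainly from muscle and testis, and stayed at or below 10.3 CPM in every class and library. High levels occurred with and without sharing: members with at least 90% shared had a median of 539 CPM, those with under 10% one of 2218 CPM, and those with 50 to 90% one of 2228 CPM.

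**Figure D4:**
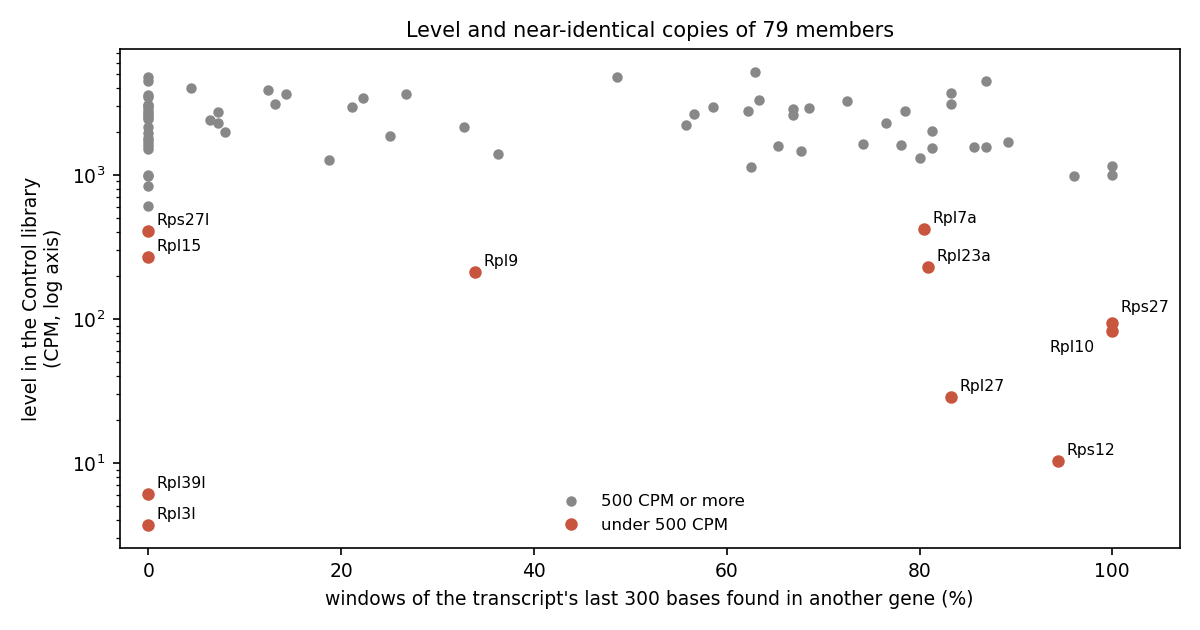
Level of 79 members in the Control library (CPM, log axis) against the percentage of 50-base windows in the last 300 bases of the transcript that occur in another gene. Of the 11 members under 500 CPM (red), 6 have at least 50% of windows shared, and many members with shared windows lie above 1000 CPM.

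The lowest log2 ratios of single members after CpG belonged to 3 genes with copies. Rpl23a, at the tunnel exit, measured 319 CPM in Control resting DCs, 103 after CpG and 193 after R848 (log2 -1.58 and -0.71), and its row Rpl23a-ps3 measured 347, 390 and 283 CPM. The member's part of the pair's UMIs was 47.9% (46.9 to 48.9), 21.0% (19.2 to 22.9) and 40.5% (38.3 to 42.8). That split was nearly the same in the other classes, at 46.3%, 21.6% and 41.7% in mature DCs and 46.8%, 21.8% and 40.2% in lysozyme-high phagocytes. The pair's sum had log2 ratios of -0.43 and -0.48 in resting DCs, near the family's. The split within the pair thus differed by library and hardly by class, and its cause was not tested.

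Rps27 and Rpl9 gave the same kind of picture to different degrees. Rps27 measured 129, 63.4 and 83.3 CPM in resting DCs, a log2 ratio of -0.97 after CpG, and its copy Rps27rt 360, 351 and 314 CPM. The pair's sum had -0.24 and -0.30. Rpl9, of the large subunit, measured 305, 128 and 228 CPM and Rpl9-ps6 151, 124 and 143 CPM, and here the sum was still low after CpG at -0.85, with -0.30 after R848. Rpl27 had the opposite sign: it measured 36.4, 56.9 and 46.9 CPM, log2 ratios of 0.58 and 0.33, while the sum with Rpl27-ps3 had 0.00 and 0.08. The higher level of Rpl27 as a single gene in resting DCs was thus not seen in the sum. Rps12 was counted at only 10.8 CPM in Control mature DCs, beside Rps12-ps3 at 315 CPM in the same cells.

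The genes around the ribosome did not all follow it. Of the 8 ribosomal protein genes outside the name rule, Rps3a1 and Gnb2l1 (also called Rack1) moved with the members: Rps3a1 measured 3511, 2507 and 2537 CPM in resting DCs and 3054, 1887 and 1869 CPM in mature DCs, and Gnb2l1 1076, 780 and 813 CPM and 873, 484 and 502 CPM. Rpl7l1, a paralog of Rpl7, was higher in treated resting DCs, at 81.6, 105 and 128 CPM, and Rpl22l1, a paralog of Rpl22, measured 710, 814 and 778 CPM. There Rpl7 (2155, 1712 and 1811 CPM) and Rpl22 (1408, 996 and 983 CPM) lay below Control. The list's medians were -0.02 and -0.04 in resting DCs after CpG and R848.

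Other mRNAs known to carry a 5' TOP tract, 18 genes for elongation and initiation factors and related proteins, moved with the members. After CpG 10 of 18 were lower and 0 higher in resting DCs, 12 and 1 in mature DCs and 10 and 1 in lysozyme-high phagocytes, with medians of -0.35, -0.70 and -0.34. Of all genes, 10.6%, 25.2% and 10.1% were lower in these comparisons. After R848 the counts were 6 and 0, 12 and 0, and 9 and 1, the medians -0.25, -0.67 and -0.34, and the shares of all genes lower 7.87%, 32.3% and 12.5%. Eef1a1, which brings aminoacyl-tRNA to the ribosome, measured 5339, 4056 and 4134 CPM in resting DCs and 5109, 3132 and 3367 CPM in mature DCs. Eif3f, an initiation factor subunit, went from 577 to 167 CPM after CpG in resting DCs and from 509 to 142 CPM in mature DCs. Tpt1, a TOP mRNA of very high level, did not follow, at 2420, 2390 and 2505 CPM in mature DCs. Larp1, the TOP-binding repressor, rose from 18.7 to 33.3 and 33.8 CPM in resting DCs and from 21.2 to 47.9 and 40.4 CPM in lysozyme-high phagocytes.

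Ribosome biogenesis factors, which make and export the subunits, were lower after treatment in mature DCs but seldom in the other classes. In resting DCs 32 of 56 measured factors were higher after R848 and 0 lower (median 0.36), beside 37.4% of all genes higher and a median over all genes of 0.24. After CpG 13 of 54 were higher and 0 lower (0.16), near the 26.2% and the median of 0.14 of all genes. In lysozyme-high phagocytes 18 were higher and 3 lower of 47 after R848 (0.28), with 26.3% of all genes higher, and 15 and 1 of 48 after CpG (0.22), with 17.8% of all genes higher. In mature DCs 1 was higher and 27 lower of 34 after R848 (-0.80), and 4 and 20 of 34 after CpG (-0.37), with 32.3% and 25.2% of all genes lower. Nop56, a core protein of box C/D snoRNPs, measured 71.0, 106 and 127 CPM in resting DCs and 38.2, 36.9 and 19.7 CPM in mature DCs. Nop10, of the box H/ACA snoRNPs, measured 232, 100 and 45.5 CPM in mature DCs. Sbds, which releases Eif6 from the late large subunit, was the opposite in mature DCs, at 99.0, 184 and 160 CPM.

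Already without treatment the biogenesis factors were lower in mature than in resting DCs, with 40 of 52 lower and 2 higher in Control (median -0.60), 49 and 1 of 54 after CpG (-1.04) and 53 and 1 of 56 after R848 (-1.74), beside medians over the ribosomal proteins of -0.17, -0.22 and -0.21. Of all genes, 33.8%, 41.9% and 53.0% were lower in these comparisons, with medians of -0.12, -0.18 and -0.39. The subunits of RNA polymerase I and its factors, which transcribe the rRNA, had medians of -0.42, -0.80 and -1.43 in the same comparisons, with 6, 7 and 9 of 12 lower and 0 higher, beside the same shares of all genes. Mitochondrial ribosomal proteins, of another ribosome, had medians of 0.13 and 0.28 in resting DCs and 0.05 and 0.12 in lysozyme-high phagocytes after CpG and R848, near the medians over all genes, and -0.07 and -0.33 in mature DCs. Myc, a driver of ribosome production, measured 20.1 CPM in Control resting DCs and 2.36 CPM in Control mature DCs.

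**Figure D5:**
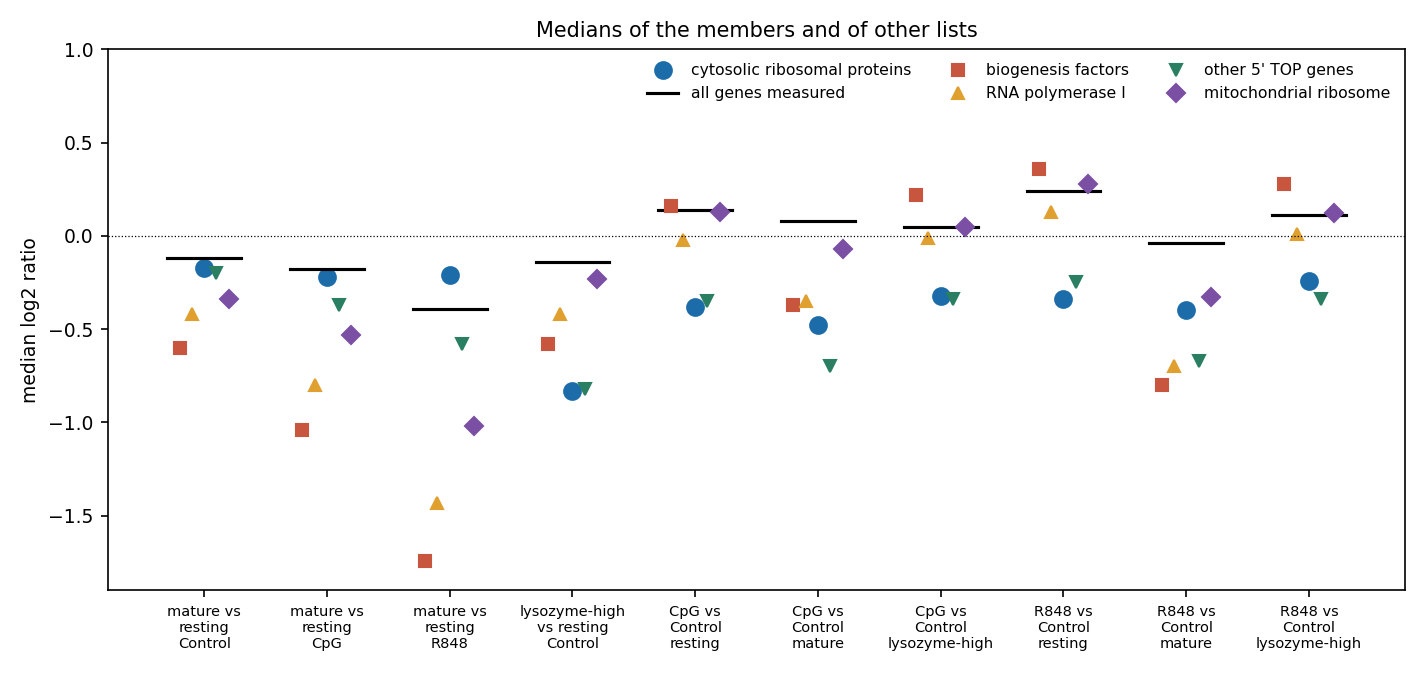
Median log2 ratio (vertical axis) of the cytosolic ribosomal proteins, of 4 other lists and of all measured genes (black bars) in the 10 comparisons. The cytosolic ribosomal proteins lie with the other 5' TOP genes below all genes in the treated classes, while the biogenesis factors lie above 0 in treated resting DCs and lysozyme-high phagocytes and below it in mature DCs (-0.37 after CpG and -0.80 after R848).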

How the data were processed

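The authors deposited, for each library, a gene-by-barcode matrix of raw UMI counts with its gene and barcode lists; per the submitters' processing notes, reads were processed with Cell Ranger 2.0.0 on mm10, with no annotation release stated. Each library is 1 sample that pools animals, and no count model was fitted.

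Barcodes with at least 500 genes and at most 10% mitochondrially encoded UMIs were kept, and 225, 202 and 209 barcodes nearest to simulated doublets were removed, leaving 5079, 4821 and 4898 cells. Clustering was done within each library (2000 variable genes, 30 components, 15 neighbours, leidenalg 0.10.2 at resolution 1.0; scikit-learn 1.9.0, numpy 2.4.6, scipy 1.17.1) and clusters were named from fixed marker lists or left unnamed. Counts were summed per class and library and given as CPM. Intervals are exact (Clopper-Pearson for shares, conditional binomial for ratios, Poisson for levels). The background is every gene with at least 20 CPM in a side of the comparison. The scripts were tested on simulated data.

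Members named are the 6 highest and 6 lowest in Control, the 3 highest and 3 lowest ratios of each comparison, and fixed role groups with paralogs; of other lists, mainly the 2 highest and 2 lowest ratios. Some genes that this rule names are not reported here by name. The members and lists were chosen with earlier results of these data known. Alternatives covered clustering genes, cell naming, scaling, free RNA, doublets, cell depth, the summary over cells, cDC2-like cells only, pseudocount and minimum level. Promoter and transcript sequences are from RefSeq (GRCm38.p6) and GENCODE M21.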

Additional observations from a re-analysis of the deposited data

Results flagged for a closer look

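The biogenesis factors differed between classes under the same contrast. After R848 their median log2 ratio to Control was 0.36 in resting DCs (56 measured factors) and -0.80 in mature DCs (34). The medians over all genes were 0.24 and -0.04. The difference of 1.16 is between medians over different sets of factors, not over the same genes. The difference was not tested, since each group is 1 library. The medians over the ribosomal proteins in the same comparisons were -0.34 and -0.40.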

How the results depend on the processing

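The log2 ratios of the summed share kept their sign under every alternative run, with 1 exception: mature against resting DCs in R848 was -0.18 as reported and 0.02 with the 50 most abundant other genes left out of the total, and the cause was not tested. Most alternatives moved a value by more than its narrow counting interval. In the following, values stand in the order mature against resting DCs in Control, CpG and R848, then lysozyme-high phagocytes against resting DCs in Control, then CpG and R848 against Control in resting DCs, mature DCs and lysozyme-high phagocytes, with -0.16, -0.18 and -0.18, then -0.85, then -0.37, -0.40 and -0.30 (CpG) and -0.35, -0.37 and -0.26 (R848) as reported. With 5% free RNA taken away, the values were -0.16, -0.19 and -0.18, then -0.90, then -0.37, -0.40 and -0.30 (CpG) and -0.35, -0.37 and -0.24 (R848). With the 50 most abundant other genes left out of the total, the values were -0.08, -0.12 and 0.02, then -0.59, then -0.36, -0.40 and -0.33 (CpG) and -0.40, -0.29 and -0.31 (R848). With only cDC2-like cells as resting DCs, the values were -0.13, -0.19 and -0.18, then -0.82, then -0.34 (CpG, resting DCs) and -0.32 (R848, resting DCs). In cells with 5000 to 10000 UMIs, the values were -0.13, -0.15 and -0.14, then -0.90, then -0.39, -0.41 and -0.40 (CpG) and -0.37, -0.38 and -0.29 (R848). Without clusters scoring below 0 for their own class, the values were -0.16, -0.18 and -0.21, then -0.85, then -0.37, -0.40 and -0.30 (CpG) and -0.31, -0.37 and -0.28 (R848). With each cell named from its own markers, the values were -0.24, -0.17 and -0.19, then -0.86, then -0.40, -0.33 and -0.30 (CpG) and -0.37, -0.32 and -0.28 (R848). As the median over cells, the values were -0.17, -0.20 and -0.17, then -0.86, then -0.37, -0.41 and -0.32 (CpG) and -0.35, -0.35 and -0.28 (R848). With near-identical copies added, the values were -0.16, -0.18 and -0.18, then -0.84, then -0.36, -0.38 and -0.29 (CpG) and -0.34, -0.36 and -0.25 (R848). Without doublet removal, the values were -0.16, -0.18 and -0.17, then -0.85, then -0.38, -0.39 and -0.30 (CpG) and -0.35, -0.37 and -0.25 (R848). Per UMI of all other nuclear genes, the values were -0.20, -0.22 and -0.21, then -1.01, then -0.47, -0.49 and -0.35 (CpG) and -0.45, -0.46 and -0.31 (R848). With ribosomal protein genes kept in the clustering, the values were -0.14, -0.18 and -0.19, then -0.85, then -0.37, -0.42 and -0.30 (CpG) and -0.35, -0.40 and -0.25 (R848). With unnamed clusters put in their best-scoring class, the values were -0.16, -0.17 and -0.17, then -0.84, then -0.38, -0.40 and -0.31 (CpG) and -0.35, -0.36 and -0.27 (R848).

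The alternatives on unnamed clusters, low-scoring clusters, near-identical copies and the clusters behind Rps27l were chosen after seeing the data. Of 100 counts of called members under other settings, 15 moved by over 1.5 times. Per UMI of all other genes, members lower went from 42 to 65 (R848, resting DCs), from 22 to 34 (R848, lysozyme-high phagocytes) and from 3 to 9 (mature against resting DCs, Control). The other 12 concerned members called higher, which number 0 to 3 under each setting. Of 300 values of single named members, 292 kept sign and call, 2 became calls (Rplp1 and Rps27l, lysozyme-high phagocytes against resting DCs, per UMI of all other genes, -0.37 and -0.40) and 6 lost theirs, 5 of these under a higher pseudocount or minimum level. No paired analysis was possible because each group is 1 library. With no replicate, the spread between pools of mice is unknown, and no alternative bears on it.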

Other observations

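B-cell-like cells, a type that the gates of the sort do not name, held the highest share of ribosomal protein UMIs of the named groups in each library: 28.5% in Control (64 cells), 25.7% after CpG (42 cells) and 31.2% after R848 (32 cells). Proliferating cells held 16.5%, 13.6% and 12.0%. In Control these split into a cluster of 192 cells at 21.6% and one of 144 cells at 12.1%, close to the shares of resting DCs and lysozyme-high phagocytes. After CpG the proliferating cluster of 156 cells measured 2284 CPM of Rps27l, against 488 CPM in that of 56 cells. In Control the 2 proliferating clusters were at 552 and 548 CPM. A cluster of 28 plasma-cell-like cells in the R848 library was at 23.2% ribosomal protein UMIs.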
